A study of Mus musculus with 12 samples.

Results

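The loci described here are annotated microRNA genes of the mouse genome, read in RNA-seq of hippocampal slices after chemical long-term potentiation. They were selected on the measured counts: a gene of the type miRNA in GENCODE release M21 (GRCm38) was kept where at least 5 counts were present in at least 3 of the 12 libraries. Mir132, Mir212 and the loci of the Meg3-Mirg region (chr12:109541001-109749460) were left out. Of 1834 such loci in the count tables, 215 were selected and 997 had no count in any library. At the edge of the rule, the 29 loci with at least 5 counts in exactly 3 libraries had a median of 38 counts over all 12 libraries, and the 39 loci just outside, with 5 counts in exactly 2 libraries, had a median of 29.

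The slices came from wild-type C57BL/6 mice of 2 to 3 months, male by the study's methods, with the dentate gyrus cut away. LTP was induced with 50 uM forskolin for 5 min and then forskolin with 30 mM KCl and 10 mM calcium up to 10 min in all, and controls had 0.2% DMSO for 10 min. Tissue was frozen 1 hr or 3 hr after treatment, which gave 4 groups (1 hr control, 1 hr LTP, 3 hr control, 3 hr LTP) of 3 libraries, each animal supplying an LTP and a control library at its time point. Forskolin, an activator of adenylyl cyclase, reaches all cells of a slice, and the libraries hold neurons, glia and vessels together. 1 hr control replicate 2, an outlier by the study's own clustering, was left out of the fits, and its values are given beside the others.

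MicroRNAs are cut from long primary transcripts. Drosha with its partner Dgcr8 releases a hairpin in the nucleus, Xpo5 exports it, Dicer1 trims it to a duplex, and an Argonaute protein keeps a mature strand that pairs with target mRNAs through its seed, bases 2 to 8. Many hairpins lie in introns of host genes and are transcribed with them, whereas others have transcripts of their own. In the hippocampus, miR-9, miR-124, miR-128 and miR-138 are known as neuronal microRNAs, and let-7 as a family that rises with maturation. The libraries here were made from total RNA depleted of ribosomal RNA, with fragments longer than a mature microRNA. The counts therefore read primary transcripts, host introns or host exons over the hairpin, and say nothing of the amount of mature microRNA.

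The mature sequences of the loci that the results turn on are shown because the seed decides which loci could give rise to microRNAs with like targets. Of the 215 loci, 128 had a mature sequence that lay within the locus in the RefSeq table (GRCm38.p6). The seed is in capitals, 5′ to 3′.
mmu-miR-335-5p: uCAAGAGCaauaacgaaaaaugu
mmu-miR-335-3p: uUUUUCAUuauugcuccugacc
mmu-miR-491-5p: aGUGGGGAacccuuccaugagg
mmu-miR-491-3p: cUUAUGCAagauucccuucuac
mmu-let-7b-5p: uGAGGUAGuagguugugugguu
mmu-let-7c-5p: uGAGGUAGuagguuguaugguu
mmu-let-7i-5p: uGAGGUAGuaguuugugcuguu
mmu-miR-29a-3p: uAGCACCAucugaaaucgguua
mmu-miR-128-3p: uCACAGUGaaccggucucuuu
mmu-miR-9-5p: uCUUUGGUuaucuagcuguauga
mmu-miR-7a-5p: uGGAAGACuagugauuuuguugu
mmu-miR-384-5p: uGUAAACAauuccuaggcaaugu
mmu-miR-30a-5p: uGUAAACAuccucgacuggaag
Among these loci, 15 seeds were shared by more than 1 locus. The let-7 seed GAGGUAG belonged to 7 of them (Mir98, Mirlet7a-1, Mirlet7b, Mirlet7c-1, Mirlet7c-2, Mirlet7g and Mirlet7i), and miR-384-5p carried the same seed as miR-30a-5p and miR-30e-5p.

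The share of loci with counts differed with their position. Of 710 loci within an intron on the same strand, 155 (21.8%) were selected and 195 (27.5%) had no counts. Of 331 loci over an exon of another gene on the same strand, 33 (9.97%) were selected and 70.7% had no counts, and of 550 loci outside other genes, 20 (3.64%) were selected and 72.2% had no counts. Of 243 loci that lay only opposite a gene, 7 (2.88%) were selected. The sources used here do not say whether a read over both a hairpin and another gene's exon was counted for both, nor whether strand was used, so these shares depend on the counting as well as on transcription. In all, 48 loci had at least 5 counts in each of the 12 libraries. The requirement was met in 3 hr libraries alone by 20 loci and in 1 hr libraries alone by 3, so the selection itself held more loci high at 3 hr, and 3 entered through a single group.

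Library totals ran from 37118382 to 50815001 counts, so that a level of 3 counts was worth 0.0584 to 0.0791 CPM, depending on the library. CPM is a count relative to the library total after TMM scaling. The median locus had 72 counts over the 12 libraries, so counting error is a large part of the spread for most loci. The immediate early genes Arc, Fos and Btg2 were induced at both time points (log2 fold changes of 1.99, 1.97 and 2.66 at 1 hr, and 1.30, 1.48 and 1.35 at 3 hr). Summed markers of neurons (Rbfox3, Snap25, Camk2a, Neurod6) lay between 3810 and 5044 CPM in all 12 libraries, and 0 of the 4 were called with LTP at either time by edgeR, while 2 of the 4 were called lower with time in control and in LTP slices (Snap25 and Neurod6). Summed microglial markers (Cx3cr1, Csf1r, P2ry12) were 130.1 to 145.7 CPM at 1 hr and 91.5 to 104.7 CPM at 3 hr, and 2 of 3 (Cx3cr1 and P2ry12) fell with time in control and in LTP slices. Both mural markers (Acta2, Myh11) fell with time in control and in LTP slices, and Myh11 was also called lower with LTP at 1 hr, from 14.8 to 18.4 CPM summed in the 1 hr controls to 10.5 to 14.0 CPM. The CA1 markers (Wfs1, Fibcd1) summed to 183.3 to 247.8 CPM at 1 hr and 250.01 to 306.4 CPM at 3 hr, and Fibcd1 was called higher with time in both slice types. The CA3 marker Grik4 lay between 59.1 and 89.1 CPM and was not called. Of the astrocyte markers (Aqp4, Gfap, Slc1a3; 1413 to 1726 CPM) Slc1a3 fell with time in both slice types, and of the endothelial markers (Cldn5, Pecam1; 31.8 to 40.8 CPM) Pecam1 fell in control and Cldn5 rose in LTP. Dentate granule cell markers (Prox1, Dsp, C1ql2) were still present, at 111.8 to 213.1 CPM summed, after the trimming. Fewer cells of a type and less RNA per cell cannot be told apart in these bulk libraries.

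Most counts of the selected loci came from a few repeated sequences. The 5 loci Gm23935, Gm24270, Gm24187, Gm25911 and Gm24245, together with Mir6236, held 98.4% of the 1753747 counts of the 215 loci. The first 30 bases of the annotated transcripts of the 5 loci are shown because their likeness bears on what their counts can mean, with a base that differs from Gm23935 in capitals.
Gm23935: cgtcgggaccggggtccggtgcggagagcc
Gm24270: cgtcgggaccggggtccggtgcggagagcc
Gm24245: cgtcgggaccggggtccggtgcggagagcc
Gm24187: cgtcgggaccAgggtccggtgcggagagcc
Gm25911: cgtcgggaccgggAtccggtgcggagagcc
Over their whole 57 bases Gm24270 and Gm24245 were identical to Gm23935. Counting from the first base, Gm24187 had the substitution G11A and Gm25911 had G14A in this window. Reads of such copies can be assigned to either locus, so their single values are uncertain. Gm23935 stood at 283, 391 and 141 CPM in 1 hr control replicates 1 to 3 and at 264, 105 and 176 CPM in 1 hr LTP. At 3 hr it was at 4434, 7042 and 6621 CPM in control and at 2156, 485 and 10047 CPM in LTP. Every 3 hr library was above every 1 hr library, while the 3 hr LTP libraries spanned the control range on both sides. Mir6236, which lay outside other genes and had no near-identical annotated copy, ranged from 26.1 CPM in 3 hr LTP replicate 2 to 2020 CPM in replicate 3. All 6 of these loci were lowest in 3 hr LTP replicate 2 and highest in replicate 3 within that group.

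The lincRNA gene Gm42418, which RefSeq lists under a name of an 18S ribosomal RNA-related sequence, was set beside them after its values were seen. Its level was 153 to 525 CPM at 1 hr, 1553 to 4479 CPM in 3 hr control, and 618, 363 and 4463 CPM in 3 hr LTP replicates 1, 2 and 3. It had the same lowest and highest library in 3 hr LTP, and it rose from 1 hr to 3 hr in control slices with a log2 fold change of 3.11 (adjusted p = 0.0225, edgeR). Gm26917, a neighbouring lincRNA gene set beside them in the same way, was at 1410, 1160 and 1630 CPM in 3 hr LTP, a far narrower spread with the same order of libraries, and rose with time in control slices by 1.39 on the log2 scale (SE 0.15, adjusted p = 6.9e-05). The part of ribosomal RNA left after depletion in the counts of the 6 loci was not tested. Mir6236 was called higher at 3 hr in LTP slices (log2 fold change 2.31, SE 1.03, adjusted p = 0.0956), and this turned to -0.48 (adjusted p = 0.641) without 3 hr LTP replicate 3. The 5 copies and Mir6236 are left out of the summed levels below. The counts of tested and called loci and the medians include them unless stated.

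**Figure D1:**
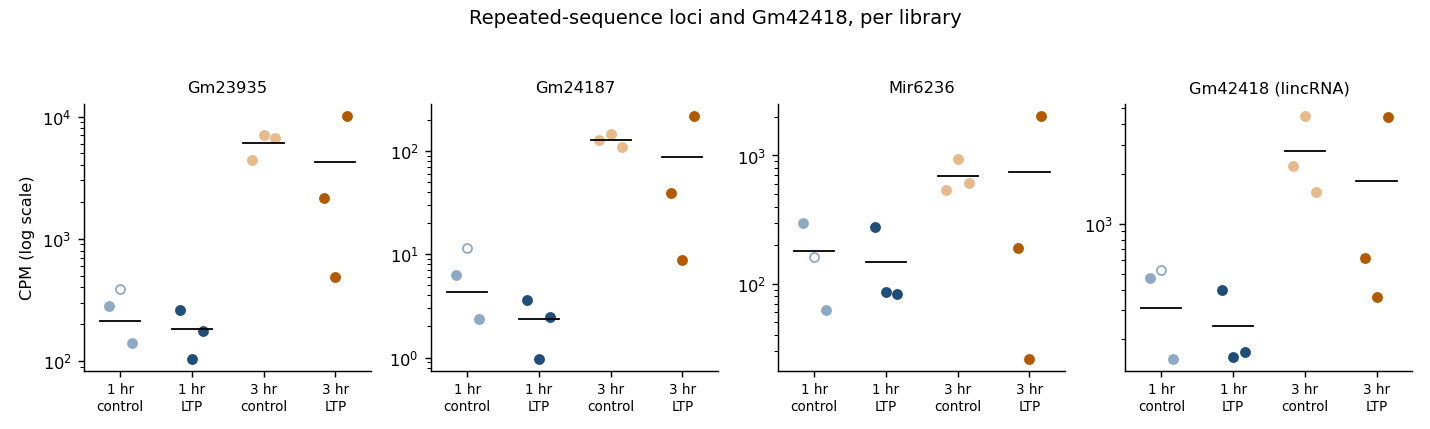
Levels of Gm23935, Gm24187, Mir6236 and the lincRNA gene Gm42418 in CPM on a log axis for each library of the 4 groups (points, replicates 1 to 3 from left to right, open for the library set aside; lines, means of the fitted libraries). The 3 hr LTP libraries are spread widely in each panel, with replicate 2 lowest and replicate 3 highest.

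Without those 6, the summed level of the other 1828 annotated loci, selected or not, was higher at 3 hr and higher with LTP. It was 51.2, 60.0 and 51.2 CPM in 1 hr control replicates 1, 2 and 3, and 63.0, 59.8 and 54.8 CPM in 1 hr LTP. In 3 hr control it was 65.4, 60.2 and 72.9 CPM, and in 3 hr LTP 84.6, 80.3 and 85.9 CPM. The 3 hr LTP libraries were above all others. The 1 hr LTP libraries were above the fitted 1 hr controls and overlapped the control set aside. Loci in introns (709) were at 58.8, 51.7 and 59.7 CPM in 3 hr LTP against 40.3, 36.7 and 47.7 CPM in 3 hr control, with no overlap. Loci over exons of other genes (331) overlapped between LTP and control at 3 hr, at 15.3 to 17.5 against 15.2 to 17.0 CPM. Loci outside other genes (546) went from 3.93 to 4.98 CPM in 1 hr control to 6.27 to 6.51 CPM in 3 hr control and 7.5 to 8.94 CPM in 3 hr LTP. The host genes of the selected loci, 164 of which were in the tables, summed to between 27988 and 30481 CPM in all libraries, and their mean was 1.05 times as high in 3 hr LTP as in 3 hr control.

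**Figure D2:**
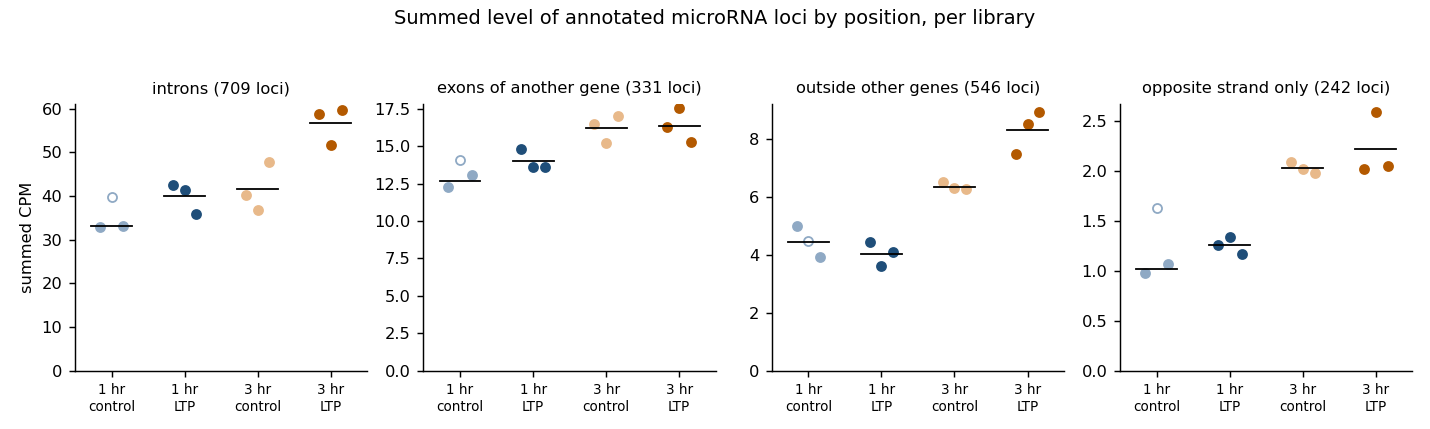
Summed CPM of all annotated microRNA loci by position (in introns, over exons of another gene, outside other genes, only opposite to a gene), 1 point per library and a line at the mean of the fitted libraries, with the 5 near-identical loci and Mir6236 left out. In introns the 3 hr LTP libraries (51.7 to 59.7 CPM) lie above the 3 hr controls (36.7 to 47.7 CPM), and over exons these groups overlap.

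LTP against control at 1 hr asked which loci responded early. The rise passed the test at 1 locus, Mir335. The filter on low counts left 65 of the 215 loci, of which 1 was called (edgeR quasi-likelihood test, adjusted p under 0.1 over all genes and a fold change over 1.2), against a background of 0.789% of 17736 genes. At an unadjusted p under 0.05, 7 loci passed, 6 of them higher, where 6.71% of all genes did. The median log2 fold change of the 65 loci was 0.19, beside 0.00 over all genes tested, and it was 0.33 for all 215 without a filter, where the lowest loci rest on a few counts. Among other gene types the median was 0.14 over 157 snoRNA genes, 0.20 over 73 snRNA genes, 0.21 over 71 sense-intronic genes, 0.42 over 41 misc_RNA genes and 0.03 over 425 lincRNA genes.

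Mir335 lies at chr6:30741299-30741396 on the plus strand, in an intron of Mest and 475 bases from its nearest exon. Mest is an imprinted gene expressed from the paternal allele, and miR-335 is made from its intron. Mir335 had 12, 8 and 11 counts in 1 hr control replicates 1, 2 and 3 and 38, 45 and 39 counts in 1 hr LTP. That was 0.310, 0.166 and 0.261 CPM against 0.923, 1.19 and 0.917 CPM. No 1 hr LTP library came near a control library, and the log2 fold change was 1.82 (SE 0.39, adjusted p = 0.0512). The rise was seen in each of 3 animals, the second with the control library set aside, with log2 ratios of 1.32, 2.28 and 1.5. The call was lost with animal as a replicate block (adjusted p = 0.102), with limma-voom (0.108), and without 1 hr LTP replicate 1 (0.134) or 2 (0.15) or 1 hr control replicate 1 (0.309) or 3 (0.453). It was kept when the set-aside control was added to the block (0.0571), and its log2 fold change stayed between 1.69 and 2.05 in the 15 fits. At 3 hr Mir335 was at 0.130, 0.109 and 0.156 CPM in control and 0.295, 0.242 and 0.264 CPM in LTP. These groups did not overlap either, and the log2 fold change of 1.01 (SE 0.33) did not pass (adjusted p = 0.134).

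Mest itself rose with LTP at both times. It was at 19.2, 19.3 and 17.9 CPM in 1 hr control and 26.4, 29.2 and 25 CPM in 1 hr LTP, a log2 fold change of 0.54 (SE 0.10, adjusted p = 0.0131). At 3 hr the log2 fold change of Mest was 0.39 (SE 0.11, adjusted p = 0.0805). The log2 ratio of Mir335 to Mest (with 0.1 CPM added to each) was -5.56, -6.19 and -5.64 in 1 hr control and -4.69, -4.51 and -4.63 in 1 hr LTP. At 1 hr the locus thus gained on its host in every LTP library, whereas at 3 hr the ratios overlapped (-6.45, -6.56 and -6.27 in control, -5.79, -6.43 and -6.17 in LTP).

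LTP against control at 3 hr asked which loci differed later. Mir491 and Gm23134 rose and no locus fell. Of 80 loci left by the filter, 2 were called, against a background of 6.6% of 17508 genes, and 23 had an unadjusted p under 0.05 (20 higher, 3 lower), against 20.2% of all genes. The share called was thus under the background and the share at an unadjusted p above it. The median log2 fold change was 0.32 over the 80 loci and 0.44 over all 215 without a filter, beside 0.00 over all genes. Among the 48 tested loci in introns 2 were called, 16 had an unadjusted p under 0.05 and 40 had a log2 fold change above 0 (83.3%, beside 49.5% of all genes tested), with a median of 0.56, while the 17 tested loci over exons had a median of -0.03. Of 73 sense-intronic genes 28 rose and 0 fell, with a median of 0.75, and of 64 snRNA genes 8 rose and 0 fell, with a median of 0.42. The count of called loci rests on single libraries: leaving out LTP replicate 2 gave 12 calls and leaving out LTP replicate 3 gave 7 (2 higher, 5 lower, of which 4 were Gm25911, Gm24187, Gm23935 and Mir6236). Leaving out LTP replicate 1 or any of the controls gave 0. The calls over all genes moved as well, from 1155 to 2170 without LTP replicate 2 and 1329 without LTP replicate 3. They were 331 without LTP replicate 1 and 228 to 415 without a control. With animal as a replicate block 7 loci were called, all higher, beside 1662 of all genes. The 7 were Mir491, Gm23134, Mir5125, Gm23989, Mir6352, Gm27833 and Mir744. Gm23989 has 4 near-identical copies and its value is uncertain.

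Mir491 (chr4:88122040-88122125, plus strand) lies in an intron of Focad, 228 bases from an exon. Focad encodes focadhesin. Mir491 was at 0.216, 0.218 and 0.331 CPM in 3 hr control (10, 10 and 17 counts) and at 0.5, 0.703 and 0.580 CPM in 3 hr LTP (22, 32 and 22 counts). The groups did not overlap, and the log2 fold change was 1.22 (SE 0.29, adjusted p = 0.0567, 0.0460 to 0.241 over the alternatives, over 0.1 without 3 hr LTP replicate 1 or any 3 hr control, and not given by DESeq2). Mir491 was higher with LTP in 3 of 3 animals at 3 hr. With so few counts in 3 hr control, it passed the filter on low counts through the 3 hr LTP libraries, where it is high. The filter thus bears on this call. At 1 hr the groups overlapped, and the log2 fold change of 0.77 (SE 0.53) did not pass (adjusted p = 0.904). Focad had 93.4, 69.4 and 89.9 CPM in 3 hr control and 112, 100 and 112 CPM in 3 hr LTP, with a log2 fold change of 0.37 (SE 0.11) that fell just short (adjusted p = 0.102). The ratio of Mir491 to Focad did not overlap between the 3 hr groups.

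Gm23134 (chr2:157562361-157562447, minus strand) lies in an intron of Blcap, 2354 bases from an exon. Blcap is an imprinted gene in brain that shares its locus with Nnat. Gm23134 was at 0.562, 0.566 and 0.798 CPM in 3 hr control and at 1.34, 0.879 and 1.27 CPM in 3 hr LTP. The lowest LTP library was just above the highest control, and the log2 fold change was 0.85 (SE 0.25, adjusted p = 0.0974, 0.0262 to 0.335 over the alternatives, and over 0.1 with limma-voom, without 3 hr LTP replicate 1 or 3, or without any 3 hr control). Blcap did not move with it, at 60.1, 59.9 and 60.5 CPM in control and 55.0, 55.4 and 59.3 CPM in LTP (log2 fold change -0.08, SE 0.06, adjusted p = 0.511). Mir384, whose mature 5p strand shares the miR-30 seed, was at 0.411, 0.501 and 0.370 CPM in 3 hr control and 0.613, 0.835 and 0.712 CPM in 3 hr LTP. These libraries did not overlap, and the log2 fold change was 0.77 (SE 0.24, adjusted p = 0.118). It lies outside other genes on the X chromosome.

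**Figure D3:**
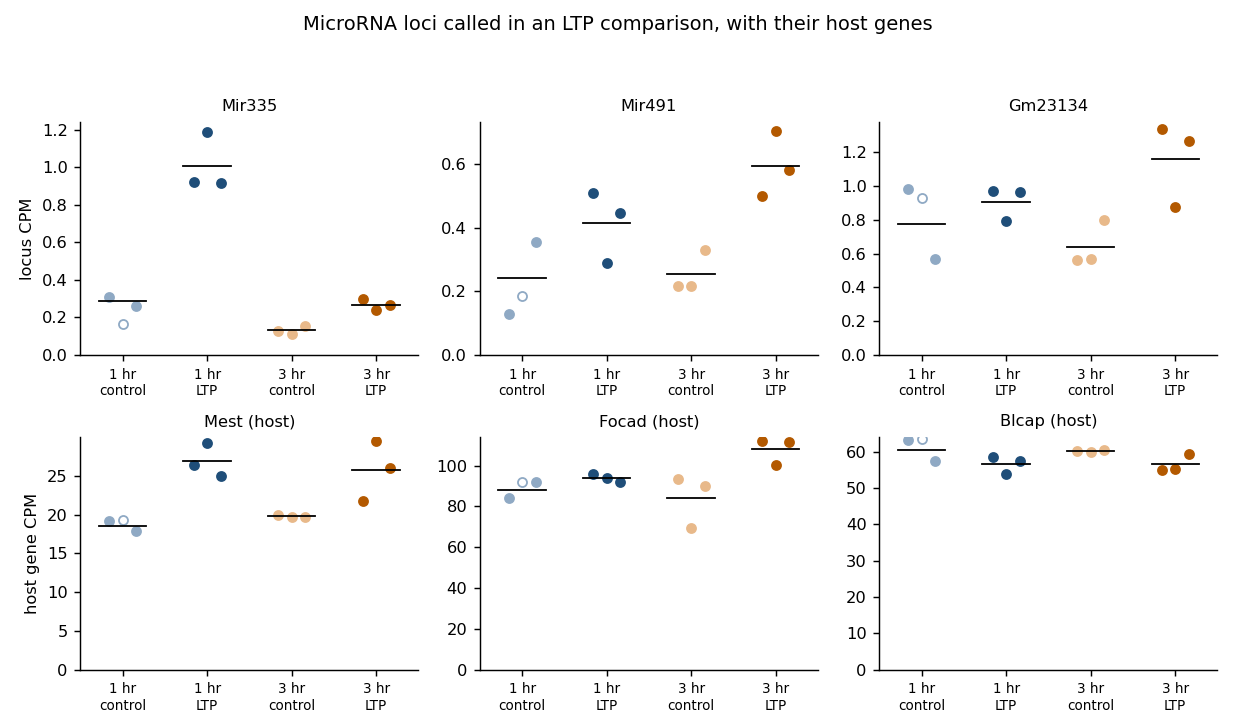
Levels in CPM of the 3 loci called in a comparison of LTP with control (upper row: Mir335, Mir491, Gm23134) and of their host genes (lower row: Mest, Focad, Blcap), 1 point per library, open for the library set aside, with a line at the mean of the fitted libraries. Mir335 rises with its host at 1 hr (0.917 to 1.19 against 0.261 to 0.310 CPM in the fitted controls), and Gm23134 is higher with LTP at 3 hr while Blcap is not.

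The share of host genes called was 1.9% with LTP at 1 hr, 17.0% with LTP at 3 hr, 28.9% with time in control and 30.2% with time in LTP. Of the tested loci in introns 2.38%, 4.17%, 21.1% and 36.8% were called, and the differences between these shares were not tested. At 3 hr with LTP, 27 of 159 tested host genes passed (17.0%), 26 of them higher, against the background of 6.6%. Most host genes have high counts, and the locus within them has few, so a lack of a call at the locus says little. R3hdm1, the host of Mir128-1, rose by 0.84 on the log2 scale (SE 0.06, adjusted p = 0.000718), from 190, 194 and 207 CPM to 333, 344 and 369 CPM. Mir128-1 was at 0.541, 0.784 and 0.642 CPM in 3 hr control and 0.886, 1.10 and 1.03 CPM in 3 hr LTP. Its groups did not overlap and its log2 fold change of 0.63 (SE 0.21) did not pass (adjusted p = 0.146). Mir99ahg, a long non-coding host of Mir99a and Mirlet7c-1, rose by 0.58 (SE 0.07, adjusted p = 0.00544), while its 2 loci had log2 fold changes of 0.14 (SE 0.26) and 0.05 (SE 0.27). Slc2a1, the glucose transporter gene that hosts Mir1957a, rose by 0.44. Mir1957a was too low for the filter at 3 hr, with 5, 2 and 3 counts in control and 15, 11 and 8 in LTP, and the groups did not overlap. With no filter it was called higher at 3 hr, and likewise without 3 hr LTP replicate 3. At 1 hr it had 4, 5 and 0 counts in control and 17, 15 and 14 in LTP, a log2 fold change of 2.86 (SE 0.79) that did not pass (adjusted p = 0.218) but was called with no filter. Ifrd1, an early gene that hosts Mir1938, rose at 1 hr and 3 hr by 0.54 and 0.51, and Mir1938 had log2 fold changes of 1.06 (SE 0.43, adjusted p = 0.655) and 0.25 (SE 0.21, adjusted p = 0.56).

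The difference between the LTP effects at 3 hr and 1 hr was called for 0 of 115 tested loci by edgeR, against 0.0592% of 18584 genes, and 4 had an unadjusted p under 0.05, against 6.59% of all genes. DESeq2 and limma-voom also called 0, though DESeq2 gave an adjusted p for 21 of the loci only. For Mir335 the difference was -0.80 (SE 0.50, adjusted p = 0.867), for Mir491 0.45 (SE 0.59) and for Gm23134 0.61 (SE 0.41). A call at a single time point is therefore not shown to be particular to it.

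The comparisons between 3 hr and 1 hr asked what differed with time in the slice. The animals of the time points were taken as different, and if they are, time and animal cannot be told apart. In control slices 30 of 115 tested loci rose and 4 fell, against a background of 16.1% of genes higher and 16.8% lower. The share called in either direction was close to that of all genes (34 loci, with 32.8% of all genes called), with more calls up than down. The selection and the filter bear on this direction, since 20 loci met the selection rule in 3 hr libraries alone and 3 in 1 hr libraries alone, and 50 of the 115 were too low for the 1 hr fit and 35 for the 3 hr fit. Among the 55 loci tested in both of those fits, 16 rose and 3 fell in control and 23 rose and 4 fell in LTP, beside 16.6% and 17.0% of genes so tested in control and 19.2% and 17.4% in LTP. The 55 hold the 5 near-identical copies, all of which rose in control. Of these copies Gm23935, Gm24187, Gm24270 and Gm25911 also rose in LTP, as did Mir6236. In LTP slices 41 rose and 6 fell, against 18.6% and 17.3% of genes (35.9% in either direction). Without 1 hr control replicate 3 the count in control was 20, and without 3 hr control replicate 3 it was 21. With the set-aside library included, 22 of 91 tested loci rose and 3 fell in control, with a median log2 fold change of 0.35. In the main fit the median log2 fold change of the tested loci was 0.54 in control and 0.66 in LTP, and of all 215 without a filter 0.53 and 0.64, beside -0.02 and 0.00 over all genes tested. It was 0.52 and 0.53 in control for the loci above and below the median of their mean levels, and 0.66 and 0.64 in LTP. Of 222 snoRNA genes the median was 0.37 in control and 0.58 in LTP, while 107 snRNA genes had medians of -0.21 and -0.01 and protein-coding genes 0.00 and 0.01. Without the 5 near-identical copies but with Mir6236, 25 of 110 rose and 4 fell in control, and 37 rose and 6 fell in LTP.

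Both comparisons, which share no library but come from the same fit, called 20 loci higher (66.7% of the control calls and 48.8% of the LTP calls) and 3 lower. Of all genes called higher the shares called in both were 72.1% and 62.3%, above those of the loci. In both time comparisons 2 of 3 microglial and both mural markers fell, and of the 4 neuronal markers Snap25 and Neurod6 fell while Rbfox3 and Camk2a were not called, with log2 fold changes above 0. The part of these markers in the differences of the loci was not tested.

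Some let-7 loci were among those that rose in control slices. Of 10 annotated let-7 and Mir98 loci 8 were selected and 6 were tested, of which 4 rose in control (Mirlet7b, Mirlet7c-1, Mirlet7c-2, Mirlet7i) and 1 in LTP (Mirlet7b), with 0 lower. Mirlet7b and Mirlet7i were too low for the filter in the 1 hr fit and came into the comparison through 3 hr libraries, so nothing is read from this count. Mirlet7b, at chr15:85707319-85707403 over an exon of Lncppara, was at 0.103, 0.228 and 0.166 CPM in 1 hr control and 0.800, 0.784 and 1.01 CPM in 3 hr control. Its log2 fold change was 2.62 (SE 0.53, adjusted p = 0.00246). In LTP slices it was at 0.413, 0.211 and 0.165 CPM at 1 hr and 0.523, 0.352 and 0.950 CPM at 3 hr, where the groups overlapped (log2 fold change 1.16, SE 0.42, adjusted p = 0.0457, and not called without 1 hr LTP replicate 2 or 3 or without 3 hr LTP replicate 3, up to adjusted p = 0.234). Mirlet7c-2, less than 1 kb upstream on the same strand, rose by 0.75 in control (SE 0.32, adjusted p = 0.0897, called in 10 of 18 fits). Mirlet7i had 3 counts in the 2 fitted 1 hr controls and 29 in 3 hr control, a ratio of 5.45 (95% interval 1.69 to 28, counting error only). Mir98, in an intron of Huwe1, had a log2 fold change of -1.26 (SE 0.67, adjusted p = 0.166) in control.

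Mirlet7c-1 and Mir99a lie in the same cluster within Mir99ahg and differed in their values. In control slices Mirlet7c-1 went from 0.181, 0.393 and 0.332 CPM at 1 hr to 0.779, 0.588 and 0.662 CPM at 3 hr (log2 fold change 1.35, SE 0.39, adjusted p = 0.0193, and 0.142 without 1 hr control replicate 1). Mir99a, a short way upstream, was at 0.697, 0.559 and 0.711 CPM and then 0.627, 0.479 and 0.448 CPM (log2 fold change -0.47, SE 0.28, adjusted p = 0.217). Mir99ahg fell in the same comparison by 0.46 on the log2 scale (SE 0.12, adjusted p = 0.0113). The ratio of Mirlet7c-1 to Mir99ahg was -6.35, -5.44 and -6.05 at 1 hr and -4.48, -4.76 and -4.66 at 3 hr, with no overlap.

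Mir29a and the Mir23b locus, of kinds often found in glia and vessels, rose in both slice types. Mir29a (chr6:31062660-31062747, minus strand, outside other genes) was at 0.413, 0.724 and 0.166 CPM in 1 hr control and 1.30, 0.871 and 1.07 CPM in 3 hr control. In LTP it went from 0.510, 0.448 and 0.423 CPM to 1.14, 2.18 and 1.58 CPM. No 3 hr library was as low as any 1 hr library, and the log2 fold changes were 1.88 (SE 0.40, adjusted p = 0.00339) and 1.80 (SE 0.31, adjusted p = 0.000738). Mir23b, in an intron of 2010111I01Rik, rose by 1.35 in control (SE 0.39, adjusted p = 0.0184, and 0.183 without 1 hr control replicate 3) and 1.56 in LTP (SE 0.32, adjusted p = 0.00223). The control library set aside, at 0.807 CPM, lay within its 3 hr control range (0.784 to 1.32 CPM). Its host had log2 fold changes of 0.22 and 0.44. Its cluster neighbour Mir27b was called in LTP, at 0.66 (SE 0.25, adjusted p = 0.0496, and 0.103 without 1 hr LTP replicate 2), beside 0.63 in control (SE 0.29, adjusted p = 0.113), and the difference between these was not called (0.03, adjusted p = 0.997). Of 4 selected glial, immune and vascular loci (Mir23b, Mir27b, Mir221, Mir338), 1 rose in control and 3 in LTP. Beside them, 16.1% and 18.6% of all genes were called higher, and nothing is read from a count over 4 loci. Mir338, an oligodendrocyte-related locus in Aatk, had log2 fold changes of 0.39 (SE 0.74) and 0.96 (SE 0.66). None of 9 listed loci of the miR-17 clusters and their paralogs was selected, and of 7 miR-29 and miR-34 loci Mir29a alone.

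Of the 17 selected loci of microRNAs known from brain, 9 were tested with time, of which 5 rose in control (Mir218-2, Mir128-1, Mir103-2, Mir9-3, Mir138-2) and 0 fell. In LTP 7 rose, the same 5 with Mir138-1 and Mir384, and Mir7-1 fell. Of the 5, Mir128-1 alone was also tested in the 1 hr fit, and the other 4 came into the comparison through 3 hr libraries, so nothing is read from these counts. Some of the calls were fragile: Mir138-1 in LTP was called in 9 of 18 fits, Mir103-2 in control in 10 of 15 and Mir138-2 in control in 13 of 18. Mir9-3, in an intron of Mir9-3hg, was at 0.0258, 0.228 and 0.0711 CPM in 1 hr control and 0.216, 0.348 and 0.389 CPM in 3 hr control. The set-aside library lay within the 3 hr range, and the log2 fold change without it was 2.60 (SE 0.67, adjusted p = 0.0102), while the host was nearly level at 0.22 (SE 0.09, adjusted p = 0.0867). Mir128-1 rose by 1.52 in control (SE 0.37, adjusted p = 0.00763, 0.00312 to 0.112 over the alternatives), from 0.129, 0.621 and 0.308 CPM to 0.541, 0.784 and 0.642 CPM, and it was not called once the set-aside library was included. Its host R3hdm1 fell by 0.29 on the log2 scale (SE 0.07, adjusted p = 0.00917). Mir103-2, Mir138-2 and Mir218-2 had 1, 2 and 3 counts in the fitted 1 hr controls and 21, 22 and 26 in 3 hr control, ratios of 11.8 (1.90 to 490), 6.20 (1.52 to 54.4) and 4.89 (1.5 to 25.2) by counting error alone, and in the set-aside library 4, 5 and 8 counts. Mir7063 had 0 counts there and 21 at 3 hr, at least 3.95-fold higher against a floor of 3 counts over the group, but 10 counts in the set-aside library.

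**Figure D4:**
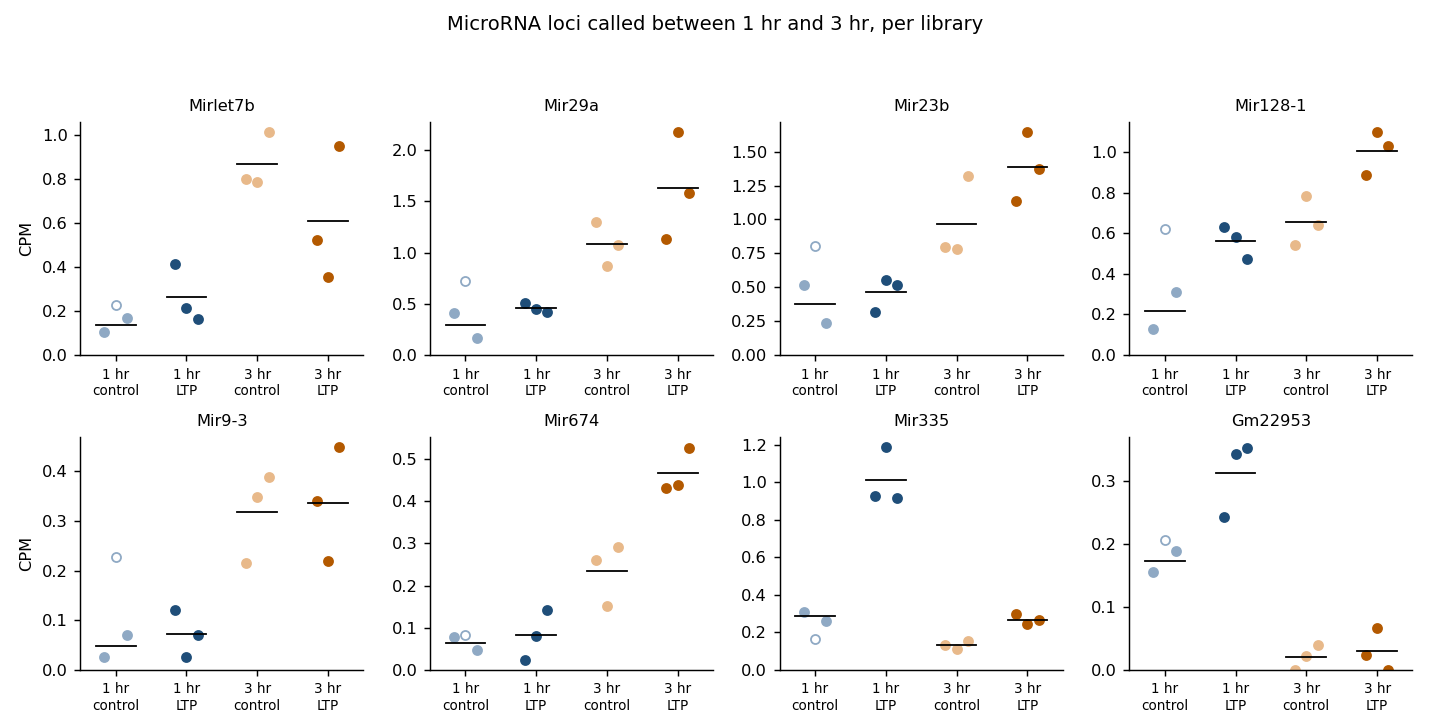
CPM of 8 loci called between 3 hr and 1 hr, 1 point per library, open for the 1 hr control library set aside, with a line at the mean of the fitted libraries. Mirlet7b, Mir29a, Mir23b, Mir128-1, Mir9-3 and Mir674 are higher at 3 hr in control slices, and Mir335 and Gm22953 are lower.

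The loci that fell with time were few. Mir335 fell by 1.12 on the log2 scale in control (SE 0.39, adjusted p = 0.0435, called in 12 of 18 fits) and by 1.92 in LTP (SE 0.28, adjusted p = 0.000234), where its 1 hr level was highest. Its host Mest had log2 fold changes of 0.06 and -0.08 there, neither called. Gm22953, in an intron of Serinc4, had 6, 10 and 8 counts in 1 hr control and 0, 1 and 2 in 3 hr control, and 10, 13 and 15 counts in 1 hr LTP and 1, 3 and 0 in 3 hr LTP. No 3 hr library reached a 1 hr library, and the ratio in control was 0.121 (95% interval 0.0223 to 0.433, counting error only). Gm22953 met the selection rule in 1 hr libraries alone, where it is high, so its fall is drawn from the values that selected it. Gm25749, over an exon of Gria2, an AMPA receptor subunit gene, fell by 0.64 in control (SE 0.21, adjusted p = 0.0299) and by 0.51 in LTP (SE 0.18, adjusted p = 0.0421), called in 15 and 16 of 19 fits. Gria2 fell as well, by 0.33 and 0.30. Mir6374 fell in control by 1.06 (SE 0.47, adjusted p = 0.0997) while its host Tet3, a dioxygenase of 5-methylcytosine, rose by 0.68 (SE 0.16, adjusted p = 0.00694), and Mir6374 was called in 4 of 18 fits. Mir7-1, in an intron of Hnrnpk, fell in LTP by 0.61 (SE 0.21, adjusted p = 0.0398, and not called without 1 hr LTP replicate 3 or 3 hr LTP replicate 3, up to 0.158), from 2.11, 2.35 and 2.63 CPM to 1.75, 1.91 and 1.03 CPM. At 1 hr it was higher with LTP than in control (1.63, 1.01 and 1.49 CPM) with no overlap, and that log2 fold change of 0.61 (SE 0.22) did not pass (adjusted p = 0.538).

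Set against their hosts, loci mostly had the larger log2 fold change. A locus in an intron reads unspliced transcript, whereas the count of a host gene can also hold spliced mRNA, so the 2 are unlike measures. Where both were tested, the locus exceeded its host for 29 of 44 loci at 1 hr LTP, 38 of 54 at 3 hr LTP, 57 of 83 with time in control and 68 of 83 with time in LTP. The medians were 0.50 for loci and 0.11 for hosts at 3 hr LTP, and 0.39 and -0.09 with time in control. Across loci the Pearson correlation of the 2 log2 fold changes was 0.46 at 1 hr LTP, 0.21 at 3 hr LTP and 0.11 with time in control, a description over loci that share libraries. The tested loci are those with more counts in some group, which bears on these counts. For all 170 loci with a host in the tables, the median change of the log2 ratio of locus to host was 0.20 at 1 hr LTP, 0.20 at 3 hr LTP, 0.26 with time in control and 0.34 with time in LTP. With 0.5 CPM added in place of 0.1, these medians fell to 0.06, 0.02, 0.12 and 0.10, since the lowest loci are then held near no change.

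**Figure D5:**
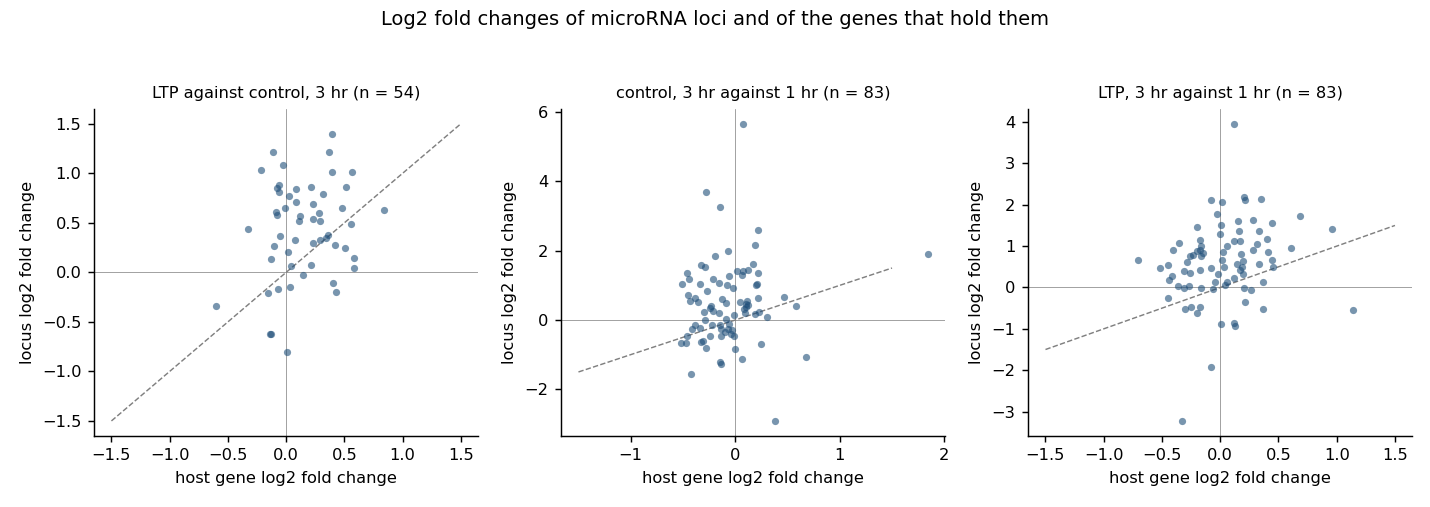
Log2 fold change of each locus against that of its host gene (edgeR fits, both tested) at 3 hr LTP against control (54 loci) and for 3 hr against 1 hr in control and in LTP slices (83 loci each); the dashed line marks equal change and axes differ between panels. Points above the line are loci with the larger log2 fold change, 38 of 54, 57 of 83 and 68 of 83.

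Genes of the microRNA pathway moved little with LTP at 1 hr and some rose at 3 hr. Of 31 listed genes with counts, 30 were tested, of which 0 were called at 1 hr (edgeR, with 5 at an unadjusted p under 0.05) and 6 rose at 3 hr with 0 lower, beside 0.789% and 6.6% of all genes called and 6.71% at an unadjusted p under 0.05 at 1 hr. These were the Argonaute genes Ago3 (log2 fold change 0.42) and Ago2 (0.56), Dicer1 (0.32), the Argonaute partners Tnrc6b (0.40) and Tnrc6c (0.36), and Tut4 (0.29), which adds uridine to let-7 precursors. At 3 hr 13 of the 30 had an unadjusted p under 0.05, beside 20.2% of all genes. Tsnax was lower by 0.26 (adjusted p = 0.0408, edgeR) and was not called because of the fold limit. The calls of these genes were not followed over the alternatives. Dicer1 was at 83.4, 85.4 and 91.6 CPM in 3 hr control and 112, 101 and 110 CPM in 3 hr LTP. All 3 LTP libraries were above the controls. Xpo5 was at 67.1 to 69.6 CPM in 3 hr control and 65.4 to 69.2 CPM in 3 hr LTP, and Dgcr8 had a log2 fold change of 0.02 (SE 0.07). With time in control slices 7 of the 30 rose and 4 fell, a share near that of all genes (32.8% called). Ddx17, a helicase of the Drosha complex, rose by 0.35 and Khsrp, which binds let-7 precursors, by 0.66. Tut4, Tut7, Tent2 and Drosha fell by 0.50, 0.33, 0.50 and 0.33. With time in LTP slices 8 rose and 2 fell, beside 35.9% of all genes called. Ago2, Ago1 and Tnrc6b were among those that rose there (0.69, 0.31 and 0.27), and Tut4 and Tut7 fell by 0.27 and 0.30. Drosha and Tent2 had log2 fold changes of -0.08 (SE 0.07) and -0.15 (SE 0.09) in LTP slices and were not called, and the difference of effects was called for 0 of the 30 genes (edgeR, with 6 at an unadjusted p under 0.05).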

How the data were processed

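RNA-seq counts of 12 libraries (TruSeq Stranded Total RNA with Ribo-Zero) were used. The authors aligned reads with STAR to GRCm38/mm10 and counted reads per gene with Bioconductor packages, and the deposited tables, 1 per time point, hold raw counts that were not normalized. The counting mode, strand setting and annotation release are not given in the sources used here. The study says that its expression analysis kept reads in coding regions, whereas the deposited tables also list counts for non-coding genes, so whether that restriction applies to them is unclear and limits what a count at a hairpin stands for. Of 41091 gene IDs, 20554 matched GENCODE M21 with their version, 19663 without it, and 874 did not. No column lacked a sample.

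A host was the gene of another type whose body holds the locus on the same strand (186 loci had one, 170 of them with a host in the tables). A near-identical copy was another annotated gene with at least 90% identity over at least 90% of the locus that does not overlap it (35 loci had one), and these loci are uncertain. Tests used edgeR 4.0.16 in R 4.3.3 (filterByExpr, TMM, quasi-likelihood F test, Benjamini-Hochberg over all genes), where a call needed a fold change over 1.2 and an adjusted p under 0.1, without a fold minimum for the difference of effects. LTP was compared with control in separate fits of 5 libraries at 1 hr and 6 at 3 hr, and time comparisons and the difference of effects in 1 model of 4 groups with 11 libraries. Alternatives were DESeq2 1.42.0, limma-voom (limma 3.58.1), other scalings and filters, the set-aside library, a replicate block and leaving out each replicate. The fits were also run on simulated counts with the same spread for all genes. That setting differs from loci with few counts, so nothing on their calls is read from it. The standard error is the log2 fold change divided by the root of F.

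The labels give the animal, so LTP and control libraries of a number are paired within a time point, and p-values measure the spread between libraries of different animals. Their deviations from group means correlated at 0.02, -0.22 and 0.09 for animals 1, 2 and 3 at 1 hr and at 0.08, 0.02 and 0.29 at 3 hr, over 15637 genes. The labels do not say whether animals of the time points differ, and they were taken as different.

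Named loci were those called in a comparison (up to 10 of smallest p in each direction), the 12 with the highest mean level, and members of lists of brain, let-7, miR-17 cluster, miR-29 and miR-34, and glial, immune and vascular loci, with their hosts, and called pathway genes. Loci and genes named outside this were chosen after their values were seen. The loci, the lists and the tests were chosen with earlier results of these data known. Depth limits the precision of loci near 3 counts, and intervals and floors cover counting error only. The result of 1 marker list is not reported here.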

Additional observations from a re-analysis of the deposited data

Results flagged for a closer look

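At 10 of the 215 loci the log2 ratio of LTP to control (0.1 CPM added to each) was below 0 in all 3 animals at 1 hr and above 0 in all 3 animals at 3 hr, and 0 loci went the other way. The 10 are 4.65% of the loci, beside 1.14% of all genes by the same rule on counts, and 1.04% of those genes went the other way. In 4 of the 10 (Mir744, Mir325, Mir709 and Mir129-2) the raw counts of some animal were equal or ran the other way, so that sign rests on the scaling for library size. Equal counts gave a ratio just below 0 in animal 3 at 1 hr and just above 0 in animal 2 at 3 hr. That is the direction counted here. The other 6 also had raw counts in the same direction in every animal. These 6 are 2.79% of the loci, beside 0.212% of the 20312 genes that meet the same rule on counts, and 0 loci and 0.448% of those genes went the other way by raw counts too. In each animal the 3 hr LTP library had a lower total than its control, and the loci have few counts. The shares of loci and of all genes are therefore not a like comparison. The ratio of animal 2 at 1 hr uses the control library set aside from the fits. The opposite directions were not tested on these ratios. In the fit, the difference of effects was tested for 6 of the 10 and was called for none of them (Mir7236 was called with no filter on low counts), and the other 4 (Mir7651, Gm25847, Mir709 and Mir129-2) were too low for the filter. Mir6982, in an intron of Camk2a, had a mean of -0.54 at 1 hr and 0.57 at 3 hr. Gm26233, in an intron of Cttnbp2, had a mean of -0.53 at 1 hr and 0.87 at 3 hr, and its counts are few at 1 hr. Mir7236, in an intron of Rab40b, had a mean of -1.27 at 1 hr and 0.36 at 3 hr. For Mir744, in an intron of Map2k4, the means were -0.078 and 0.68, and for Mir8095, in an intron of Dgkg, they were -0.19 and 0.69. Mir325, in an intron of 5330434G04Rik, had means of -0.71 and 0.66. Of the 4 loci not tested, Mir7651 in an intron of Zmiz2 had means of -0.69 and 0.76, and Mir709 in an intron of Rfx1 had means of -0.72 and 0.61. Gm25847, in an intron of Tmem63c, had means of -0.41 and 0.51, and Mir129-2, in an intron of Mir670hg, had means of -0.48 and 0.55.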

How the results depend on the processing

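Of 928 settings over 55 called values, 799 kept direction and call, 128 kept direction without the call and 1 turned: Mir6236 with time in LTP slices, which was -0.48 without 3 hr LTP replicate 3 (lowest) and 3.15 without 1 hr LTP replicate 1 (highest). With LTP at 1 hr the number of loci called was 1, with limma-voom 0 (7 at an unadjusted p under 0.05), with no filter 5, with a replicate block 0, and 0 to 1 leaving out single replicates. With LTP at 3 hr it was 2, with DESeq2 1 (Gm23134, with no adjusted p given for Mir491), with a replicate block 7, and 0 to 12 leaving out single replicates. The calls over all genes at 3 hr ran from 228 to 2170 leaving out single replicates. The replicate block left the difference of effects at 0 calls, whereas it moved the calls with LTP at 1 hr and 3 hr as given above. With no filter the difference of effects had 1 call, Mir7236. For the time comparisons no paired analysis was possible because each animal was taken to belong to 1 time point. At least 10 counts in every library left 27 loci in the fit over both times and gave 11 calls with time in control and 14 in LTP, in place of 34 and 47, and leaving out single replicates gave 20 to 35 in control. Requiring 10 counts in 3 libraries would select 100 loci, 63.0% of them in introns in place of 72.1%. With 0.5 CPM added, the median changes of the ratio of locus to host were 0.065, 0.021, 0.12 and 0.10. A fit that leaves 1 library in the 1 hr control assumes that it varies like the others. The causes of these differences were not tested beyond the loci and libraries that each setting removes. Depth limits all loci near 3 counts.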
